A study of Mus musculus with 12 samples.

Results

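The libraries described here come from mouse embryonic stem cells in which the pluripotency factor Oct4 had been switched off with doxycycline, and they set Phf6 knockout (KO) cells against wild type (WT) cells. They are 4 of the 12 RNA-seq libraries of the series, 2 KO and 2 WT, chosen by genotype and treatment in the sample titles. Both genotypes are the ZHBTc4 line of strain 129/Ola, and both groups received doxycycline for 2 days at a dose given as 0.5 µg/ml in the sample labels and with milligrams in place of micrograms in the treatment text. All ZHBTc4 cells, KO and WT alike, lack intact native alleles of Pou5f1, the gene of Oct4, and make the protein from a doxycycline-repressible transgene. The other 8 libraries are KO and WT cells left untreated, and KO and WT cells given all-trans retinoic acid without leukemia inhibitory factor for 4 days, with 2 libraries per group. The labels do not say how many KO lines were used or how Phf6 was inactivated. Separate cultures are not stated for the replicates either, so p-values cover only the spread between these libraries, and that spread may be technical. The first passages were grown on mouse embryonic fibroblasts and later ones without feeder cells, per the labels. The series title names the activation of trophectodermal genes by PHF6 as the question.

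Trophectoderm is the outer layer of the blastocyst and the source of the placenta's trophoblast cells. Oct4 holds this fate in check in stem cells, and when it is removed the cells switch on Cdx2, AP-2, GATA and ETS-family transcription factors, simple-epithelium keratins and imprinted placental genes. PHF6 is an X-linked chromatin protein with PHD-type zinc fingers, and the series title describes it as a ubiquitin ligase of histone H2B, a modification tied to active transcription.

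Libraries held 15799517 to 21441996 counts, and the 4 doxycycline libraries 18711777 and 17057981 (KO) and 15799517 and 21441996 (WT). Mitochondrial genes took 1.19% to 1.64% of counts. In the 4 doxycycline libraries a count of 0 allows up to 3 counts, or 0.15 to 0.2 CPM, where CPM is the count relative to the TMM-adjusted library size. The replicates of both doxycycline groups were further apart than counting noise gives (a chi-square of 6.28 per degree of freedom for KO and 4.88 for WT), and their log2 CPM correlated at 0.99. Differences are log2 KO over WT ± SE from 1 edgeR quasi-likelihood fit of all 12 libraries, where each SE is taken from that fit's F statistic and the log2 change. P-values were adjusted by Benjamini-Hochberg across 17884 genes, and "rose", "fell", "higher" and "lower" with a count of genes mean an adjusted p under 0.05. In bulk RNA, fewer cells of a type and less RNA per cell cannot be told apart.

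Phf6 (ENSMUSG00000025626.16, GRCm38 chromosome X, 52912266 to 52956943) had 7.38 and 8.19 CPM in the KO libraries with doxycycline and 35.1 and 29.9 CPM in the WT libraries. The groups did not overlap, and the change was -2.06 ± 0.11 (edgeR adjusted p = 3.5e-14). In the other conditions Phf6 stood at 4.49 and 6.50 CPM in untreated KO cells against 42.8 and 40.2 CPM in untreated WT cells, and at 5.90 and 5.96 CPM in KO cells with retinoic acid against 40.3 and 40.7 CPM in WT cells with retinoic acid. Every KO library therefore lay below every WT library. The KO to WT gap was smaller with doxycycline than untreated by 0.85 (edgeR adjusted p = 0.00094). These are gene totals, which do not show which exons the remaining KO counts came from.

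Pou5f1 had 13.0 and 14.3 CPM in KO and 34.1 and 46.3 CPM in WT with doxycycline, against 1196 and 1193 CPM in untreated KO cells and 1031 and 1013 CPM in untreated WT cells. Oct4 RNA was thus low in all 4 doxycycline libraries and lower in both KO libraries than in both WT libraries (-1.57 ± 0.13, edgeR adjusted p = 1.9e-06). This gap was not present untreated (0.22, edgeR adjusted p = 0.075), and the difference between the 2 conditions was -1.80 (edgeR adjusted p = 9.6e-06). Whether these gene totals come from the transgene or from the disrupted native alleles was not tested.

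Of the 17884 genes tested, 6614 differed between KO and WT with doxycycline (37.0%), 3197 higher (17.9%) and 3417 lower (19.1%). At least 2-fold changes passed in 1418 genes (7.93%), 808 higher (4.52%) and 610 lower (3.41%). The 2 KO and 2 WT libraries did not overlap for 11370 genes (63.6%). Without chromosome 1, 6012 of 16797 genes differed (35.8%), 3162 higher (18.8%) and 2850 lower (17.0%). The share of calls that were higher was 48.3%, and with upper-quartile in place of TMM scaling it was 60.6% (4168 higher, 2706 lower). The median log2 change over all genes was 0.005 with TMM and 0.072 with upper-quartile scaling. Every list below is read against these percentages.

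**Figure D1:**
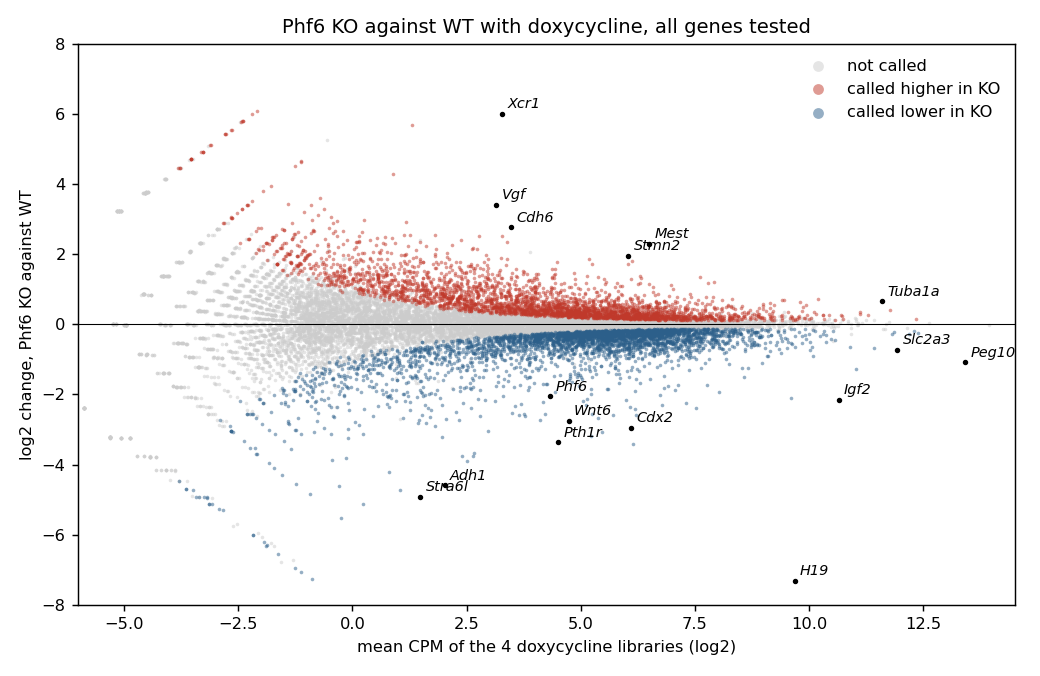
Log2 change of each tested gene with a count (KO against WT with doxycycline) against its mean CPM in the 4 doxycycline libraries on a log2 scale, with genes called higher in KO in red, lower in blue and the rest in grey. H19 lies far below all other abundant genes, Peg10 and Igf2 are among the most abundant genes that fell, and Xcr1, Vgf and Cdh6 lie above.

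Transcription factors of trophectoderm were mostly lower in KO cells. Of 20 tested, 12 fell and 2 rose, and their median was -0.57 against 0.005 for all genes. Without Elf3, the 1 member on chromosome 1, 11 of 19 fell, 2 rose and the median was -0.45. Cdx2 (chromosome 5, 147300805 to 147307270), the homeobox factor that directs trophectoderm, had 15.2 and 16.1 CPM in KO and 117 and 125 CPM in WT. Tfap2c (chromosome 2, 172549593 to 172558622), an AP-2 factor of trophoblast stem cells, had 58.8 and 58.9 CPM in KO and 288 and 330.2 CPM in WT. Elf3 (chromosome 1, 135253575 to 135258568), an ETS factor of epithelia, had 37.4 and 37.6 CPM in KO and 172 and 194 CPM in WT. For each of the 3 genes both KO libraries lay near each other and far below both WT libraries. The changes were -2.95 ± 0.09 (edgeR adjusted p = 3e-20), -2.39 ± 0.064 (7.8e-21) and -2.29 ± 0.065 (1.1e-20).

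Promoter windows of Cdx2, Elf3 and Gata3 are shown because these factors differed in how far they fell, Gata3 much less than Cdx2 or Elf3. Each window is RefSeq sequence of GRCm38.p6 on the minus strand, 250 bases before to 50 after the gene's start: Cdx2 chr5:147307200-147307499, Elf3 chr1:135258423-135258722 and Gata3 chr2:9878551-9878850. The start is RefSeq's, which for Cdx2 and Elf3 is near the 5′ end of the gene span in GENCODE M21 and for Gata3 lies well inside that span, since GENCODE also lists transcripts of Gata3 that begin further upstream. Capitals mark matches on either strand to the octamer ATGCAAAT, the AP-2 motif GCCNNNGGC, the TEAD motif GGAATG or the GATA motif AGATAA.
Cdx2: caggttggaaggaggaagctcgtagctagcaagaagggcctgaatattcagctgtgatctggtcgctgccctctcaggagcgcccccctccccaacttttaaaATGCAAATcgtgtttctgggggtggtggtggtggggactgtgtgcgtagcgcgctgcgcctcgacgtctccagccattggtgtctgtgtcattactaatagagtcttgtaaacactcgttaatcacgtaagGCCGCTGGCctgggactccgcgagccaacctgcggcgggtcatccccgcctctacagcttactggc
Elf3: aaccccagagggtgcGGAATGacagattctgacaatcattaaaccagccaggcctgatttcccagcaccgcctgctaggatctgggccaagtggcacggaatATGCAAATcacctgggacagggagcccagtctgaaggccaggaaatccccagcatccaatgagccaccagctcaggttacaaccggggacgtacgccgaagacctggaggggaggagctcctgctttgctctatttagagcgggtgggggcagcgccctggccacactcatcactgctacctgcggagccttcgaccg
Gata3: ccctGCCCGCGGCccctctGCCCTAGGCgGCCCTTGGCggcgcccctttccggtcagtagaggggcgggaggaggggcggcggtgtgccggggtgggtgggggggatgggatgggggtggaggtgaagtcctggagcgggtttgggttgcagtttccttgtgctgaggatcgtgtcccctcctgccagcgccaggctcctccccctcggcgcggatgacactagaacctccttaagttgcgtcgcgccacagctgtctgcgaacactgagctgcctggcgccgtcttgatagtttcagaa
The octamer, the letters Oct factors bind, begins 147 bases before the start of Cdx2 and 148 before that of Elf3. Cdx2 also holds an AP-2 match 16 bases before its start, Elf3 a TEAD match 235 before, and Gata3 AP-2 matches 246, 231 and 221 before. Among all 32851 promoter windows, 1.74% hold the octamer, 16.6% the AP-2 motif, 14.7% the TEAD motif and 11.2% the GATA motif. Of the 12 factors that fell, 7 had a window in the table (9 windows). The octamer was in the windows of 2 of them, Cdx2 and Elf3, the AP-2 motif in 3, the TEAD motif in 2 and the GATA motif in 0. A match is a stretch of letters, not a measured binding site.

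Further factors also fell. Ascl2, a bHLH factor of spongiotrophoblast, had 9.96 and 12.7 CPM in KO and 66.3 and 77.6 CPM in WT, a change of -2.67 ± 0.12. Esx1, a placental homeobox factor on the X chromosome, had 31.2 and 30.7 CPM in KO and 113 and 116 CPM in WT (-1.89). Gata2, a GATA factor of trophoblast, had 60.9 and 57.8 CPM in KO and 157 and 175 CPM in WT (-1.49). In each of these genes the groups were apart by more than 2 fold with replicates close together. Gata3, the GATA factor of early trophectoderm, had 53.4 and 49.2 CPM in KO and 83.3 and 88.6 CPM in WT (-0.74 ± 0.081, edgeR adjusted p = 2.8e-08). Hand1, a bHLH factor of giant cells, had 48.6 and 52.8 CPM in KO and 77.0 and 86.2 CPM in WT (-0.69 ± 0.08, 6.3e-08). Dlx3, Tfap2a, Tead4 and Grhl2 fell by 1.15, 0.82, 0.45 and 0.42 on the log2 scale. The call of Grhl2, an epithelial factor, was lost without either first replicate, with DESeq2 and with effective-length offsets, and its length-scaled level was 4.35 TPM in KO and 4.31 TPM in WT.

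Not every regulator was low. Eomes, a T-box factor of trophoblast stem cells, had 2.80 and 3.94 CPM in KO and 3.81 and 3.43 CPM in WT, and these ranges overlapped (edgeR adjusted p = 0.74). Msx2 had 38.8 and 40.8 CPM in KO and 39.2 and 40.02 CPM in WT (edgeR adjusted p = 0.98). Klf5, a Krüppel-like factor of stem cells and trophectoderm, rose, with 96.0 and 99.5 CPM in KO against 63.2 and 63.3 CPM in WT (0.63 ± 0.052, edgeR adjusted p = 1.1e-10). Fosl1, an AP-1 subunit of giant cells, also rose (2.85 and 2.09 CPM in KO, 0.34 and 0.81 CPM in WT). Elf5, a factor of committed trophoblast, had 0 and 3 counts in KO and 1 and 4 counts in WT and was not tested. By length-scaled level the most abundant factors in WT were Tfap2c (32.2 TPM in KO, 160 TPM in WT), Elf3 (28.7 and 136 TPM), Gata2 (39.9 and 117 TPM) and Esx1 (28.9 and 105 TPM), each with the KO mean first. Cdx2 stood at 10.2 TPM in KO and 76.7 TPM in WT. In KO cells Klf5 (42.0 TPM), Gata2 and Hand1 (39.9 TPM each) were the highest of these factors, and in WT cells Tfap2c and Elf3 were.

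**Figure D2:**
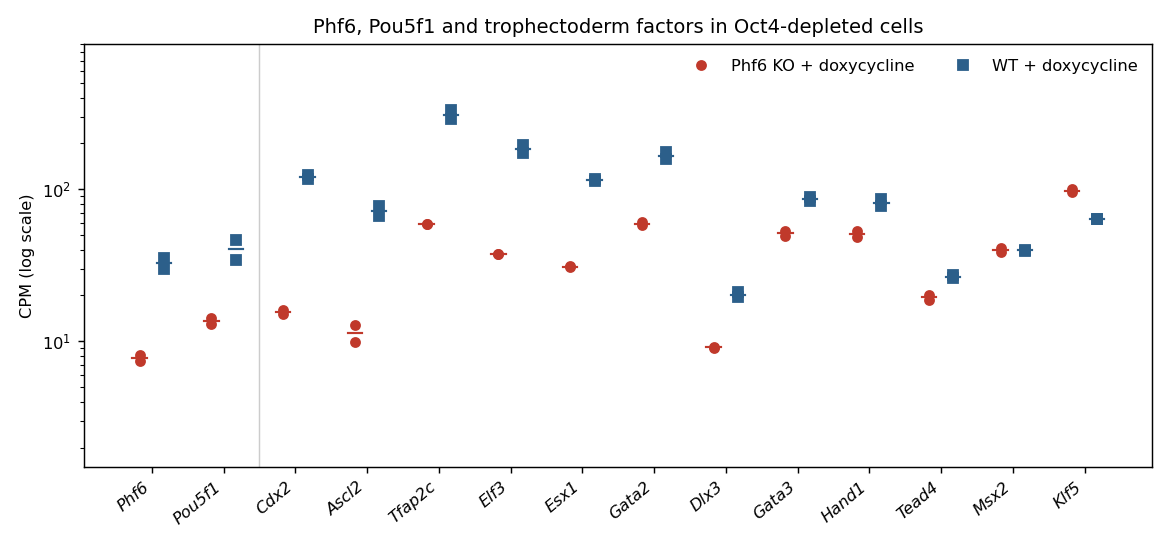
CPM (log scale) of Phf6, Pou5f1 and 12 trophectoderm factors in each doxycycline library, with KO libraries as red circles left of WT libraries as blue squares and a bar at each mean. Both KO points lie below both WT points from Phf6 to Tead4, the Msx2 points overlap, and the Klf5 points of KO lie above those of WT.

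The epithelial genes of trophectoderm moved less. Of 29 keratin, junction and ion pump genes, 20 fell and 5 rose (median -0.40), and 18 of 27 fell outside chromosome 1 (median -0.31). Aqp8 and Aqp3, water and glycerol channels, fell furthest. Aqp3 had 1.40 and 1.73 CPM in KO and 5.04 and 6.31 CPM in WT (-1.88 ± 0.21). Krt7, a simple-epithelium keratin, had 14.7 and 13.7 CPM in KO and 44.6 and 51.9 CPM in WT (-1.77 ± 0.1, edgeR adjusted p = 7.6e-14). The abundant keratins Krt8 and Krt18 fell only to 798 and 722 CPM and to 639 and 609 CPM in KO, against 1037 and 1141 CPM and 747 and 911 CPM in WT. Tight junction genes were split: Cldn3 and Cldn7 fell by 0.82 and 0.77 on the log2 scale, whereas Tjp1, the scaffold ZO-1, rose by 0.23 and Ocln, occludin, by 0.72. The count of risers was 3 without WT replicate 2 and 2 with effective-length offsets, and the calls of Ocln and Tjp1 were lost under these offsets, that of Ocln also without WT replicate 2. Atp1b1, a sodium pump subunit on chromosome 1, fell by 0.78 on the log2 scale. Slc2a3, a glucose transporter, had 2910.0 and 2964 CPM in KO and 4862 and 4798 CPM in WT (-0.72 ± 0.05).

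Placental genes that were measurable were lower in KO or did not pass. Of 15 tested, 9 fell and 0 rose (median -0.29), and 0 were higher at an unadjusted p under 0.05 in edgeR or with DESeq2. Plac1, an X-linked gene of placental growth, had 3.92 and 3.94 CPM in KO and 23.8 and 22.1 CPM in WT (-2.54 ± 0.15). Plet1, a surface protein of trophoblast progenitors, had 1.34 and 1.32 CPM in KO and 8.24 and 9.29 CPM in WT (-2.72 ± 0.18). Phlda2, an imprinted brake on placental growth, had 54.9 and 54.3 CPM in KO and 249.9 and 270.3 CPM in WT (-2.25 ± 0.06). In all 3 the WT libraries were more than 4 times as high as the KO libraries. Gcm1, the factor of syncytiotrophoblast, was low in both groups and fell (0.78 and 0.48 CPM in KO, 1.43 and 2.88 CPM in WT), a call lost without WT replicate 2. The 15 listed genes of differentiated placenta that were not tested, among them Tpbpa, Prl3d1 and Synb, had at most 5 counts in any doxycycline library, and 11 of them had 0 counts in all 4. The reproductive homeobox genes of the X-linked Rhox cluster had 3 of 7 tested members lower. Rhox5 had 23.9 and 21.6 CPM in KO and 122 and 122 CPM in WT (-2.42 ± 0.064). Rhox6 and Rhox9 changed by -2.58 and -3.08. Untreated, the changes of Rhox5, Rhox6 and Rhox9 were -2.70, -1.92 and -2.09. Members of this cluster resemble each other, so the division of reads among them is uncertain.

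The imprinted genes, which are expressed from 1 parental copy, went both ways. Of 49 tested, 18 fell and 12 rose, the median was -0.01, and 11 of the falls and 2 of the rises were at least 2-fold. H19 (chromosome 7, 142575529 to 142578143), a noncoding RNA next to Igf2, had 10.0 and 10.5 CPM in KO and 1593 and 1669 CPM in WT, a ratio of 159 between the means (-7.31 ± 0.08, edgeR adjusted p = 7.8e-31). Igf2 (chromosome 7, 142650766 to 142666816), a fetal growth factor, had 587 and 594 CPM in KO and 2637 and 2581 CPM in WT (-2.14 ± 0.054, edgeR adjusted p = 7.6e-22). The H19 levels of KO and WT were thus further apart than the Igf2 levels in every library pairing. H19 was also lower in untreated KO cells, at 0.60 CPM against 22.7 CPM in WT (-5.24), and with retinoic acid (-6.16). Exons of Igf2 overlap those of the antisense gene Igf2os, which averaged 22.1 CPM in KO and 112 CPM in WT, and without a stated strand setting their reads cannot be told apart. Mest (chromosome 6, 30723547 to 30748465), a paternally expressed hydrolase, went the other way, with 147 and 154 CPM in KO and 31.2 and 30.2 CPM in WT (2.30 ± 0.058, edgeR adjusted p = 7.6e-22). Its exons overlap Copg2 on the other strand, which averaged 132 CPM in KO and 133 CPM in WT.

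Each of these 3 genes hosts a miRNA on its own strand, shown here as the sequences that lie inside these strongly changed transcripts. The mature sequences are RefSeq's (GRCm38.p6), read 5′ to 3′, with the seed (bases 2 to 8) in capitals. Small RNAs themselves were not measured.
mmu-miR-675-5p (H19, chr7:142577112-142577133, minus strand): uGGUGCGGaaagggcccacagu
mmu-miR-675-3p (H19, chr7:142577078-142577099, minus strand): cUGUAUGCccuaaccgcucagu
mmu-miR-483-5p (Igf2, chr7:142654968-142654989, minus strand): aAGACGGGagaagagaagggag
mmu-miR-483-3p (Igf2, chr7:142654932-142654952, minus strand): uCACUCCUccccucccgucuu
mmu-miR-335-5p (Mest, chr6:30741314-30741336, plus strand): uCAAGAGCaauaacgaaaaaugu
mmu-miR-335-3p (Mest, chr6:30741354-30741375, plus strand): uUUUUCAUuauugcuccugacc
No 2 of these 6 share a seed.

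Other imprinted genes followed either direction. Peg10, a retrotransposon-derived gene needed for placenta, had 7036 and 6898 CPM in KO and 14820 and 14620 CPM in WT (-1.08 ± 0.049). Its fall in CPM was the largest among called genes with no clone-based or predicted symbol. Peg3, a zinc finger gene, had 230.1 and 249.7 CPM in KO and 591 and 545 CPM in WT (-1.24), and Igf2r, the receptor that clears IGF2, had 237 and 225 CPM in KO and 369.8 and 387 CPM in WT (-0.71). All 3 had separate groups, as did 63.6% of all genes tested. Nnat fell by 1.46 on the log2 scale. Of the maternally expressed RNAs on chromosome 12, Rian had 0.17 and 0.18 CPM in KO and 1.63 and 1.77 CPM in WT, and Meg3 0.056 and 0.18 CPM in KO and 0.95 and 1.06 CPM in WT. Both RNAs were also lower in untreated KO cells, Rian at 0.43 CPM against 3.49 CPM in WT and Meg3 at 0 against 2.12 CPM. Cdkn1c, a cell cycle inhibitor near Phlda2, had 256 and 252 CPM in KO and 238 and 272 CPM in WT, which overlap (edgeR adjusted p = 0.93). Cd81 and Osbpl5 rose by 0.77 and 0.81.

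Residual pluripotency transcripts were lower in KO. Of 34 tested, 22 fell and 7 rose (median -0.68), and outside chromosome 1 20 of 29 fell and 6 rose (median -0.67). Nanog had 111 and 114 CPM in KO and 199 and 208 CPM in WT (-0.86 ± 0.052). Nr5a2, a nuclear receptor on chromosome 1, had 4.76 and 4.003 CPM in KO and 22.8 and 19.98 CPM in WT (-2.28 ± 0.13). Fbxo15 fell by 2.05, Tdgf1, a Nodal coreceptor, by 1.34, and Dppa2, Dppa4 and Sall4 by 0.90, 0.67 and 0.69 on the log2 scale. Tdgf1 lost its call when any 1 of the 4 libraries was left out (edgeR adjusted p = 0.051 to 0.073). The genes that rose were Sox2 (60.1 and 66.7 CPM in KO, 33.5 and 36.3 CPM in WT), Klf5, Spp1, Otx2, Jam2, Esrrb and Lefty2, and the call of Esrrb was lost without WT replicate 1. Dppa5a did not pass (0.02, edgeR adjusted p = 0.89). Formative epiblast genes split 6 higher and 6 lower of 22, with Otx2 up by 0.82 and the DNA methyltransferase genes Dnmt3b and Dnmt3l down by 0.52 and 1.16 on the log2 scale.

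Other early lineages showed a few large single changes. In the primitive endoderm list 6 of 26 rose and 7 fell (median -0.07). Gata6, its master factor, had 1.73 and 2.21 CPM in KO and 9.47 and 10.95 CPM in WT (-2.38 ± 0.17). The basement membrane genes Lama1 and Sparc rose by 1.06 and 0.61, while Lamb1 fell by 0.47. The 6 risers became 3 without KO replicate 1 or WT replicate 2. In the primitive streak and mesoderm list 4 of 19 rose and 2 fell. Kdr, the VEGF receptor of blood vessel precursors, had 3.64 and 3.41 CPM in KO and 0.27 and 0.10 CPM in WT, and Pdgfrb rose by 0.80. The 2 that fell, Lhx1 and Cdx1, became 1 when any 1 library was left out. T, Mesp1 and Evx1 had at most 3 counts in any doxycycline library.

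The FGF pathway signals through receptor tyrosine kinases to the kinase ERK, which switches on its own inhibitors. Of 29 tested members, 17 rose and 5 fell, with a median of 0.82, and none lies on chromosome 1. The receptor Fgfr2, which carries FGF4 signals in trophoblast stem cells, had 30.6 and 29.0 CPM in KO and 85.1 and 87.9 CPM in WT (-1.54 ± 0.07, edgeR adjusted p = 2.9e-16). Its exons overlap those of Ctbp2 on the same strand, which averaged 65.8 CPM in KO and 50.3 CPM in WT. Fgfr3 went the other way (11.8 and 10.5 CPM in KO, 3.27 and 5.15 CPM in WT, 1.37 ± 0.16). The adaptor Frs2 and the FGF-binding protein Fgfbp1 fell by 0.77 and 1.39 on the log2 scale. Feedback inhibitors and targets of ERK were higher. Dusp6, an ERK phosphatase, had 29.0 and 26.7 CPM in KO and 14.0 and 13.3 CPM in WT (1.03 ± 0.086, edgeR adjusted p = 1.3e-10). Spry2 and Spry4, Sprouty inhibitors, rose by 0.82 and 1.46, Spred1 by 0.93, Dusp4 and Dusp5 by 0.86 and 1.10. Egr1, an early response factor, had 10.96 and 13.3 CPM in KO and 2.996 and 3.08 CPM in WT (1.99 ± 0.14). Against this direction, the target genes Myc and Etv5 fell by 0.77 and 0.36. For all of these genes the KO and WT libraries did not overlap, which held for 63.6% of all genes tested.

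In the Wnt list changes went both ways. Of 42 tested, 12 fell and 9 rose (median 0.03), and outside chromosome 1 8 of 38 fell and 9 rose. Wnt6 (chromosome 1, 74771892 to 74785322) had 7.83 and 5.92 CPM in KO and 43.3 and 49.3 CPM in WT (-2.75 ± 0.12, edgeR adjusted p = 2.8e-16). Wnt7b had 11.6 and 10.99 CPM in KO and 29.0 and 33.4 CPM in WT (-1.47 ± 0.11). Wnt10a and Wnt5a fell by 2.35 and 1.77, and the receptors Fzd7 and Fzd5, both on chromosome 1, by 1.31 and 0.78 on the log2 scale. Fzd2, another receptor, rose by 0.93, and Sp5, a target of the pathway, had 11.3 and 8.96 CPM in KO and 3.13 and 3.13 CPM in WT (1.69 ± 0.22). Tcf7, Sfrp1 and Notum rose by 0.60, 0.48 and 0.77. In the BMP, Nodal and activin list 11 of 32 rose and 8 fell (median 0.06). The BMP target Id1 had 314 and 249.6 CPM in KO and 99.4 and 119 CPM in WT (1.36 ± 0.11, edgeR adjusted p = 2.3e-05). Nog, the BMP antagonist noggin, rose by 1.48, Id3 by 0.70, and Bmp7 fell by 0.76. The 11 risers of this list became 7 without KO replicate 2 or without WT replicate 1, and the 8 fallers became 4 without WT replicate 2.

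Of 28 genes of vitamin A handling, 4 rose and 7 fell (median 0.18), against 17.9% of all genes higher and 19.1% lower, and a few of the changes were large. Stra6l, a receptor for retinol-binding protein, had 0.22 and 0.12 CPM in KO and 5.65 and 5.198 CPM in WT (-4.91 ± 0.4, edgeR adjusted p = 6.3e-11). Adh1, an alcohol dehydrogenase that can oxidize retinol, had 0.39 and 0.24 CPM in KO and 7.70 and 7.92 CPM in WT (-4.59 ± 0.31). Of the retinoic acid binding proteins, Crabp1 had 15.9 and 14.3 CPM in KO and 3.68 and 4.39 CPM in WT (1.89 ± 0.12), and Crabp2 18.1 and 18.3 CPM in KO and 30.4 and 33.3 CPM in WT (-0.81 ± 0.09). The 2 carriers therefore went opposite ways, each with separate groups, as 63.6% of all genes tested had. With upper-quartile scaling 7 members rose. The Hox genes, which pattern the body axis, were expressed at low levels: 10 of 38 fell and 2 rose (median -0.50). Hoxc9 had 3.30 and 2.99 CPM in KO and 8.72 and 9.99 CPM in WT (-1.58 ± 0.18), and Hoxc6, Hoxc4, Hoxc8, Hoxc10 and Hoxc13 of the same cluster also fell. Hoxb9 rose by 0.59. Without KO replicate 1 the 10 that fell became 6.

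Neural and adhesion genes were higher in KO cells. In the neural list 18 of 33 rose and 6 fell, with a median of 0.68, and outside chromosome 1 17 of 31 rose and 6 fell. Stmn2, a microtubule regulator of axons, had 103 and 106 CPM in KO and 26.1 and 27.6 CPM in WT (1.96 ± 0.059, edgeR adjusted p = 2e-20). Gap43, a growth cone protein, had 65.9 and 64.6 CPM in KO and 28.9 and 27.1 CPM in WT (1.22 ± 0.073). Vgf, a neuropeptide precursor, had 17.9 and 14.46 CPM in KO and 1.57 and 1.46 CPM in WT (3.42 ± 0.2). These 3 had no overlap between groups, like 63.6% of all genes tested. Nes, the progenitor filament nestin, rose by 1.15, and the cell adhesion molecule L1cam by 1.57. Other neuronal genes fell: Rtn1 by 1.12, Elavl3, an RNA-binding protein of neurons, by 1.10 and the neurofilament Nefl by 1.03 on the log2 scale. Nefl overlaps Nefm on the other strand, which averaged 4.17 CPM in KO and 5.17 CPM in WT. The 6 that fell became 3 without KO replicate 2 or WT replicate 2. Hes5 had 0 counts in all 4 libraries, and Dcx, Neurog2 and Fabp7 had at most 9.

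Among cadherins and protocadherins 17 of 38 rose and 4 fell (median 0.61). Cdh2, the N-cadherin of neural and mesenchymal cells, had 31.3 and 30.7 CPM in KO and 10.3 and 10.3 CPM in WT (1.59 ± 0.1, edgeR adjusted p = 9.4e-13). Cdh6 had 18.9 and 20.02 CPM in KO and 2.52 and 3.08 CPM in WT (2.78 ± 0.14), and Dchs1, a large atypical cadherin, 12.5 and 10.9 CPM in KO and 1.77 and 2.27 CPM in WT (2.51 ± 0.17). Cdh1, the E-cadherin of epithelia, fell to 263 and 276 CPM in KO, against 329 and 338 CPM in WT (-0.31 ± 0.047). Cdh1 thus moved opposite to Cdh2 and by less. The 4 that fell became 2 without WT replicate 2. Of 38 collagen genes 19 rose and 2 fell (median 0.43, and 0.69 over the 32 outside chromosome 1). Col2a1, a cartilage collagen, had 13.6 and 13.7 CPM in KO and 4.36 and 5.30 CPM in WT (1.48 ± 0.13), and Col6a2 6.49 and 6.93 CPM in KO and 1.43 and 2.02 CPM in WT (1.92 ± 0.21). The 2 that fell became 1 without KO replicate 1.

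Markers of the fibroblasts used as feeders moved in the same direction as these groups. Some of them, such as Col6a2, are also in the collagen list, so these lists are not independent. Of 21 tested, 13 rose and 0 fell, with a median of 0.80, against 17.9% of all genes higher and 19.1% lower (edgeR). At an unadjusted p under 0.05 edgeR had 0 lower, DESeq2 called 0 lower, and 1 was lower without WT replicate 1. The summed level of the list was 1749 and 1616 CPM in KO and 1310.0 and 1447 CPM in WT, and most of it was Vim and Fn1. Col1a1 had 21.6 and 18.5 CPM in KO and 8.51 and 8.43 CPM in WT (edgeR adjusted p = 1.3e-09), and the surface protein Thy1 and the collagen cross-linker Loxl1 also rose. The fibroblast collagens Col1a2 and Col3a1 did not pass, with 2.69 and 2.51 CPM in KO against 2.86 and 2.78 CPM in WT for Col1a2, and at most 0.35 CPM in any library for Col3a1. Postn and Dcn stood at 0.10 to 0.42 CPM, and Lum and S100a4 had at most 2 counts. The part of feeder cells in the collagen, cadherin and neural changes was not tested.

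**Figure D3:**
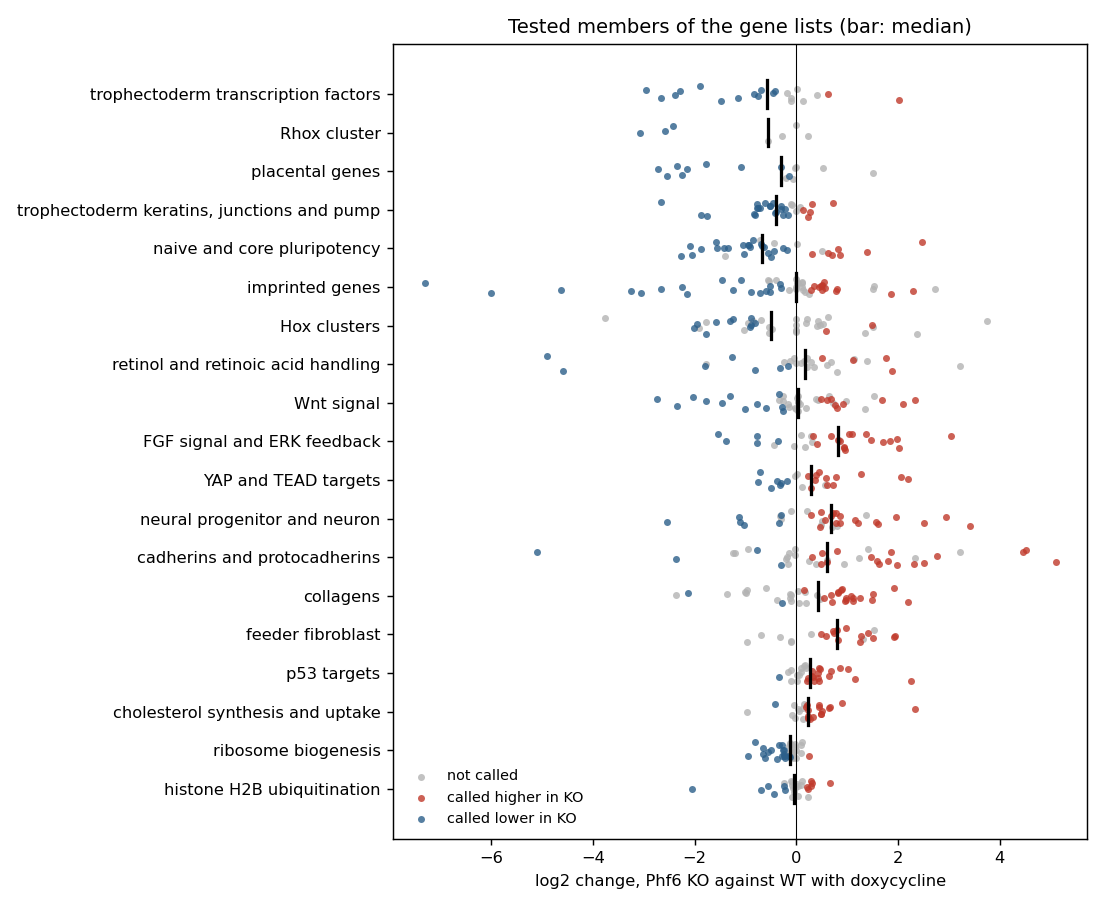
Log2 change (KO against WT with doxycycline) of every tested member of 19 gene lists, 1 row per list, with members called higher in red, lower in blue, not called in grey and the list's median as a bar. Medians run from -0.68 for pluripotency and -0.57 for trophectoderm factors to 0.80 for feeder fibroblast and 0.82 for FGF and ERK feedback genes.

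Targets of YAP and TEAD, the transcription complex that reads cell contact and helps specify trophectoderm, had 12 of 23 higher and 7 lower (median 0.30). Axl, a receptor kinase, had 9.73 and 10.6 CPM in KO and 2.996 and 1.62 CPM in WT (2.19 ± 0.19), and Ctgf, a secreted matrix protein, had 107 and 86.0 CPM in KO and 53.1 and 58.5 CPM in WT (0.79 ± 0.076). Amot, the angiomotin that holds YAP at junctions, fell by 0.50. Genes induced by p53, the DNA damage factor, had 17 of 30 higher and 1 lower (median 0.27). Fas, the death receptor, had 7.33 and 7.53 CPM in KO and 1.77 and 1.36 CPM in WT (2.26 ± 0.26). Plk2, a stress-induced kinase, had 103 and 107 CPM in KO and 49.4 and 45.3 CPM in WT (1.15 ± 0.067), and Cdkn1a, the cell cycle inhibitor p21, 128 and 119 CPM in KO and 71.5 and 82.6 CPM in WT (0.68 ± 0.072). The single lower gene lies on chromosome 1, and 2 were lower without KO replicate 2 or WT replicate 1.

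Among 27 genes of cholesterol synthesis and uptake, 17 rose and 1, Hsd17b7 on chromosome 1, fell (median 0.23). Cyp51, a demethylase of sterol synthesis, had 162 and 165 CPM in KO and 106 and 102 CPM in WT (0.66 ± 0.053). Most of these changes were under 2-fold, and without KO replicate 2 the genes that fell were 2. Hypoxia and glycolysis genes had 12 of 30 higher and 10 lower. Vegfa, a vessel growth factor, had 28.0 and 26.1 CPM in KO and 71.8 and 67.3 CPM in WT (-1.36 ± 0.067), Ndrg1 fell by 1.85, and the lactate exporter Slc16a3 rose by 1.33. Of 39 cell cycle regulators 8 rose and 15 fell. The G1 cyclins went both ways, Ccnd2 rising by 1.07 and Ccnd3 falling by 0.71 on the log2 scale. Exons of Ccnd3 overlap those of Bysl on the other strand.

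Lists tied to chromatin and growth had small median changes. Members of the ribosome biogenesis list nevertheless fell more often than all genes did (19.1%, or 17.0% outside chromosome 1). Of 26 genes of histone H2B ubiquitination, with Phf6 among them, 6 rose and 6 fell (median -0.04). Ctr9 and Cdc73, subunits of the PAF1 complex that recruits the ubiquitin ligase, fell by 0.69 and 0.56, Cdc73 from chromosome 1, and the H2B deubiquitinase Usp44 rose by 0.67. Of 17 genes of NuRD, a chromatin remodeling complex, 3 rose and 6 fell, with Rbbp7 at 845 and 825 CPM in KO and 1308 and 1318 CPM in WT (-0.65 ± 0.048). In the ribosome biogenesis list 19 of 39 fell and 1 rose (median -0.13), and outside chromosome 1 13 of 33 fell and 1 rose. Its 6 largest falls, Taf1a, Rrs1, Wdr12, Ncl, Wdr75 and Nop58, are the 6 members on chromosome 1, with changes from -0.96 to -0.55. Ubtf, a factor of RNA polymerase I on chromosome 11, fell by 0.49. The single riser became 2 without KO replicate 1, KO replicate 2 or WT replicate 1, and 3 with upper-quartile scaling.

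Interferon-stimulated genes had 5 of 19 higher and 6 lower. Ifitm1, a membrane protein that is also a stem cell marker, had 16.6 and 13.1 CPM in KO and 93.2 and 86.8 CPM in WT (-2.60 ± 0.079, edgeR adjusted p = 8.1e-20). Germline genes had 12 of 29 higher and 2 lower, and the 12 became 6 without WT replicate 2, with DESeq2 and with effective-length offsets, while the 2 became 5 without KO replicate 2. Dazl, an RNA-binding protein of germ cells, had 8.22 and 7.53 CPM in KO and 2.72 and 1.97 CPM in WT (1.78 ± 0.18). In the 2-cell embryo list 1 of 19 rose, or 2 without WT replicate 1, and 2 fell. Zscan4c, 1 of several near-identical copies whose counts are uncertain, had 0 and 0.30 CPM in KO and 1.09 and 0.96 CPM in WT.

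The 12 largest increases among genes of at least 5 CPM were Xcr1, Vgf, Cdh6, Trh, Crmp1, Dchs1, Dock3, Sema3c, Mest, Fas, Klhdc8a and Axl. All rankings in this paragraph cover called genes of at least 5 CPM without overlap between groups. Clone-based and predicted symbols were left out. Xcr1, a chemokine receptor, had 17.4 and 20.8 CPM in KO and 0.41 and 0.20 CPM in WT (6.01 ± 0.25, edgeR adjusted p = 4.3e-17). The 12 largest decreases were H19, Stra6l, Adh1, Myl3, Pnma5, Klk7, Fmr1nb, Lncenc1, Pth1r, Zfp951, Nxf7 and Rhox9, from -7.31 to -3.08. Of these, Pnma5, Fmr1nb, Nxf7 and Rhox9 lie on the X chromosome. Pth1r, the receptor of parathyroid hormone, had 4.42 and 3.65 CPM in KO and 38.3 and 44.2 CPM in WT (-3.35 ± 0.13), and Myl3, a myosin light chain whose exons overlap it on the other strand, had 0.73 and 0.72 CPM in KO and 8.85 and 12.6 CPM in WT. Reads of these overlapping genes cannot be told apart without a strand setting. By amount, Tuba1a, a neuronal tubulin, rose most in CPM (4064 and 3484 CPM in KO, 2326 and 2462 CPM in WT, 0.66 ± 0.058), followed by Tuba1b, Gapdh, Eno1, Pkm and Tubb5. Gapdh rose by 0.17 only, and its call was lost when KO replicate 1, WT replicate 1 or WT replicate 2 was left out (0.08, 0.16 and 0.16). The largest falls in CPM were those of Peg10, Igf2, Slc2a3, Fabp3, H19 and Ptma. Fabp3, a fatty acid carrier, had 1342 and 1087 CPM in KO and 2790.0 and 3104 CPM in WT (-1.28 ± 0.1).

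The KO and WT libraries with doxycycline were next set against the KO and WT libraries in the other conditions, which share no library with them. Of the 3197 genes higher in KO with doxycycline, 1188 (37.2%) were also higher untreated, which is 43.8% of the 2713 genes higher there (15.2% of genes tested, and 30.0% were called in all). Of the 3417 lower genes, 1440 (42.1%) were also lower untreated, 54.2% of the 2656 lower there (14.9%). Outside chromosome 1, 37.4% of 3162 higher and 34.2% of 2850 lower genes had the same call untreated, where 28.5% of those genes were called, 16.0% higher and 12.5% lower. With retinoic acid, 1393 of the higher genes (43.6%) and 1725 of the lower genes (50.5%) had the same call, against 18.8% of all genes higher and 20.0% lower there, 38.8% in all. In neither other condition did 1335 of the higher and 1305 of the lower genes have the same call.

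The KO to WT difference itself changed with doxycycline, relative to untreated, in 3425 genes (19.2%), 1630 more positive with doxycycline than untreated (9.11%) and 1795 more negative (10.0%). With upper-quartile scaling 61.9% of these calls were more positive, against 47.6%. Against retinoic acid 3952 genes differed (22.1%), 2031 more positive (11.4%) and 1921 more negative (10.7%), and 62.2% were more positive with upper-quartile scaling, against 51.4%. Higher with doxycycline but lower untreated were 198 genes, and 266 were the reverse. Of the 20 trophectoderm factors, 10 were lower and 3 higher untreated (median -0.40), where 14.9% of all genes were lower. With retinoic acid 10 were lower and 2 higher (median -0.58), against 20.0% of all genes lower. The KO change of 7 was more negative with doxycycline than untreated, and that of 5 more positive. Tfap2c is an example of the first kind: the KO change was -2.39 with doxycycline and -0.63 untreated, a difference of -1.76 (edgeR adjusted p = 4.2e-13). Cdx2 differed by -1.75 ± 0.5 (edgeR adjusted p = 0.013), with only 0.47 CPM in KO and 1.09 CPM in WT untreated. Ascl2 differed by -2.06 (4.1e-06), Gata2 by -1.08 (1.6e-05) and Elf3 by -1.23 (3.1e-09). Gata3 changed by -0.74 with doxycycline and by -1.58 untreated, a difference of 0.83 that did not pass (edgeR adjusted p = 0.12). For Esx1 the difference was -0.27 and did not pass (edgeR adjusted p = 0.43). Tfap2a and Grhl2 were further below WT untreated than with doxycycline, by 1.81 and 1.02.

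The same comparison was made for other groups, where 9.11% of all genes were more positive and 10.0% more negative. Of 29 FGF and ERK feedback genes, 14 were more positive with doxycycline than untreated and 4 more negative, among these Fgfr2 (-1.33, edgeR adjusted p = 4.6e-08) and Myc (-1.11, 1.2e-09). Of the placental genes 5 were more negative and 1 more positive, with Phlda2 at -2.10 (3.7e-16). For Igf2, Igf2r and Peg3 the differences were -1.54, -1.11 and -1.33, and Igf2r was higher in untreated KO cells (0.40). Stmn2 and Gap43 had untreated changes of -0.14 and -0.88, and each differed by 2.10. In untreated cells, 18 of 27 cholesterol genes, 21 of 30 p53 targets and 17 of 38 collagen genes were higher in KO, against 15.2% of all genes. These were counted without regard to their call with doxycycline. Of the collagen genes 3 were more positive with doxycycline than untreated and 5 more negative, which is near the shares over all genes. The next rankings cover genes with at least 5 CPM in the highest of the 4 doxycycline and untreated groups. The genes were also called with doxycycline in the same direction and had no clone-based or predicted symbol. Among them, the most negative differences from untreated were those of Klk7, Myl3, Stra6l, Pou2f3, Pth1r and Chrna3 (-4.45 to -3.48). Several rest on few counts and have a wide SE. Untreated, Myl3 had 3 and 1 counts in WT and 2 and 3 in KO (SE of the difference 1.0), and Chrna3 had 2 and 1 in WT (SE 0.71). Pou2f3 had 2 and 4 counts in KO with doxycycline (SE 0.49). The most positive under the same limits were those of Kirrel2, Nog, Npas4, Vgf, Klhdc8a and Rapgef3. Npas4 had 1 and 3 counts in untreated KO cells (SE of the difference 0.82). Nog had 6.10 and 6.75 CPM in KO and 1.77 and 2.73 CPM in WT with doxycycline, against 0.13 and 0.18 CPM in KO and 0.53 and 0.87 CPM in WT untreated. Kirrel2 had 3 and 3 counts in KO and 0 and 0 in WT with doxycycline, both within the floor of 3 counts, so no fold is given, and its calls were lost under several settings.

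**Figure D4:**
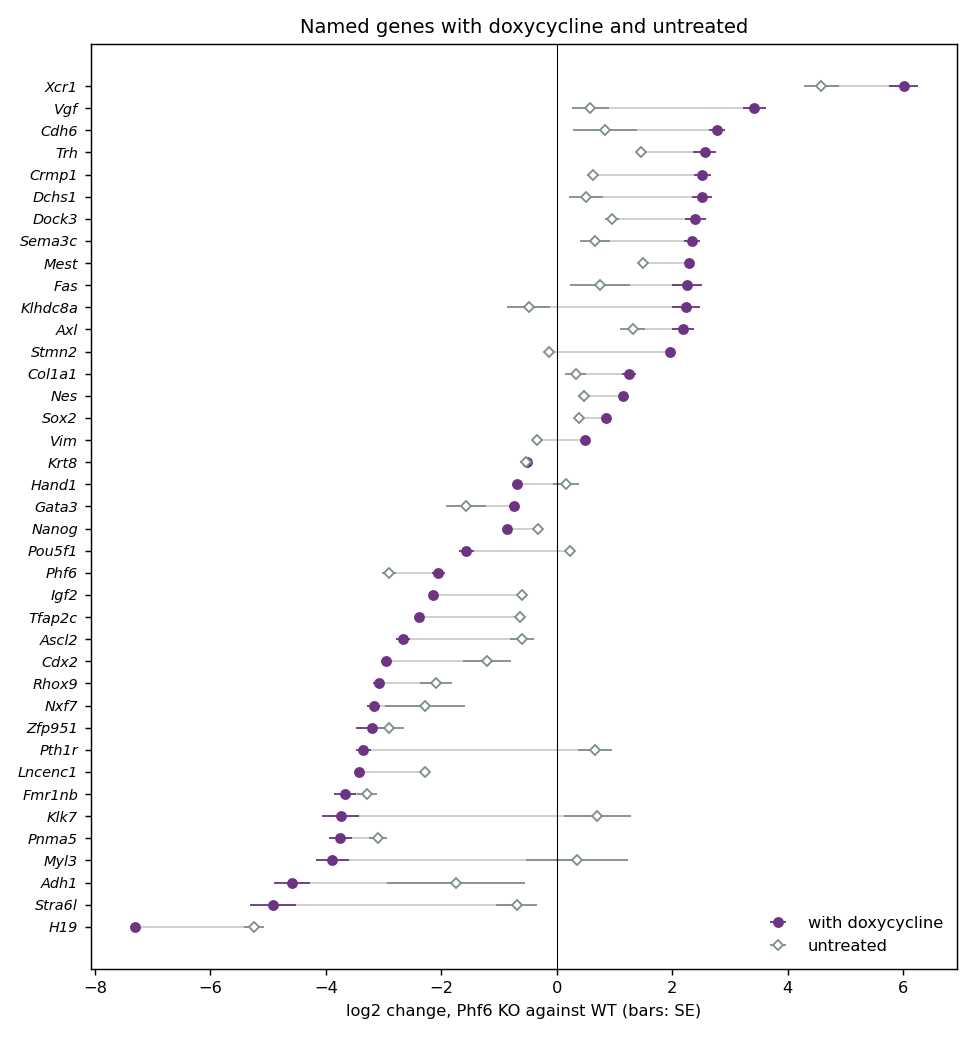
Log2 change ± SE, KO against WT, with doxycycline (filled circles) and untreated (open diamonds) for the 16 genes fixed by name and the 12 largest increases and decreases with doxycycline, ordered by the doxycycline change. Klk7, Myl3, Pth1r, Stmn2 and Vgf lie far from their untreated values, whereas Phf6, Pnma5, Fmr1nb, Zfp951 and Xcr1 were changed in the same direction in both conditions.

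Chromosome 1 was examined on its own because genes along it were lower in KO cells. With doxycycline 567 of 1087 tested genes fell (52.2%) and 35 rose (3.22%), 55.4% in all. Among 840 genes of at least 1 mean CPM the median was -0.48, a fold of 0.718, and 84.6% lay below 0. The 5%, 25%, 75% and 95% points were -1.27, -0.69, -0.22 and 0.45. In bins of 20 Mb the median lay between -0.53 and -0.44 along the whole chromosome. Other autosomes had medians from -0.10 (chromosome 8) to 0.07 (chromosome 5), and X had -0.11. Of the 567 genes that fell, 465 also fell untreated, where 51.7% of chromosome 1 genes were lower, 486 with retinoic acid, where 58.2% were lower, and 425 in both. The KO to WT difference between doxycycline and untreated passed in 19.1% of chromosome 1 genes and 19.2% of the others. Whether the KO cells carry fewer copies of the chromosome was not tested, and the number of KO lines is not given in the labels.

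Against that background 6 genes were picked. They come from called genes of at least 5 CPM in 1 group, without overlap between groups and with no clone-based or predicted symbol. Among these, Wnt6, Chil1, a chitinase-like protein, and Elf3 lay furthest below the chromosome's median. Chil1 had 3.47 and 3.76 CPM in KO and 22.2 and 21.04 CPM in WT (-2.58 ± 0.15). Under the same limits Klhdc8a, Kif1a and Bok lay furthest above the median. Kif1a, a motor protein that carries synaptic vesicle precursors, had 104 and 96.1 CPM in KO and 30.9 and 29.7 CPM in WT (1.73 ± 0.074, edgeR adjusted p = 1.1e-16), and Bok, a BCL2-family gene, rose by 1.39. Relative to the chromosome median of -0.48, Elf3 was still lower by far, whereas Atp1b1 (-0.78) and Fzd5 (-0.78) were below the chromosome's 25% point of -0.69. Of 4 Y-linked genes tested 3 rose, with Ddx3y at 55.3 and 63.9 CPM in KO and 26.3 and 21.04 CPM in WT (1.34 ± 0.11). Their summed level was 140 and 152 CPM in KO and 63.3 and 58.2 CPM in WT, and all 4 were also higher untreated.

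**Figure D5:**
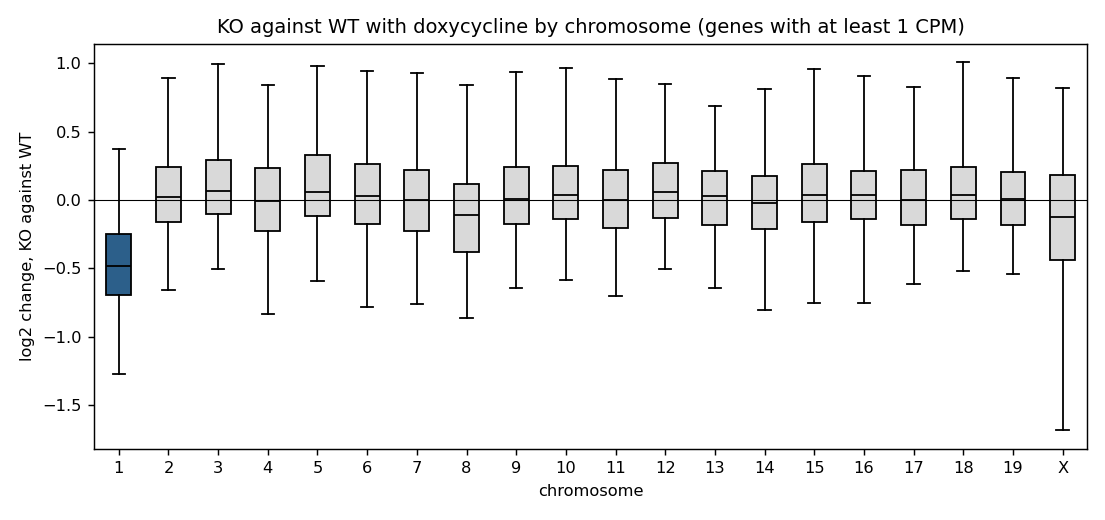
Log2 change (KO against WT with doxycycline) of genes averaging at least 1 CPM in the 4 doxycycline libraries, by chromosome, with boxes at the quartiles, a line at the median and whiskers at the 5% and 95% points. Chromosome 1 (blue) has a median of -0.48 and a box from -0.69 to -0.25, and the next lowest medians are -0.12 on X and -0.11 on chromosome 8.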

How the data were processed

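RNA of mouse ZHBTc4 cells was sequenced in 12 libraries, 2 in each of 6 groups of genotype and treatment. The authors deposited, per library, estimated counts (expected counts), TPM and effective gene lengths in bases as RSEM tables, per the file headers, with replicates not pooled. STAR 2.5.3a, RSEM 1.3.0, DESeq2 1.18.1 and the genome build mm10 are named in the submitters' processing notes, with annotation release and strand handling not given in the sources used here. Retinoic acid samples of both genotypes had their RNA prepared with a different kit, per the labels' protocols. Of 53379 gene rows, 53274 matched GENCODE M21 (GRCm38), which gave symbols and coordinates.

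Expected counts were rounded to whole numbers, genes were kept by filterByExpr with a minimum count of 10 (17884 genes), and TMM factors were used. The quasi-likelihood test of edgeR 4.0.16 (limma 3.58.1, R 4.3.3) was fitted once over the 12 libraries with 6 groups and 6 residual degrees of freedom, with p-values adjusted by Benjamini-Hochberg at 0.05. Differences between conditions were contrasts of the same fit. TPM values served to compare levels between genes and are given for KO and WT, and no test used them. Data of 17005 genes were simulated for KO against WT with doxycycline. The step recovered 50% of 1.25-fold changes, 72% of 1.5-fold, 90% of 2-fold and 98% of 4-fold changes, while calling 15 of 16805 genes left unchanged. Few genes were changed there, all groups otherwise shared 1 mean level per gene, and the spread was taken from these replicates. In the data 37.0% of genes were called, so the simulated shares are not error rates of those calls. Floors of 3 counts for a count of 0 cover counting error only.

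The libraries, gene lists and list members were chosen with earlier results of these data known. Rankings over all genes and on chromosome 1 left out clone-based and predicted symbols. The rankings by log2 change, by CPM and on chromosome 1 took genes called, of 5 CPM or more and without overlap between groups. Genes were named by rule: 16 fixed genes, the 12 largest log2 changes each way among genes called of 5 CPM or more in one group and with no overlap between groups, the 6 largest changes in CPM each way, the 6 largest differences from untreated each way among genes also called with doxycycline in that direction and of 5 CPM or more in the highest of the doxycycline and untreated groups, list members by size of change or textbook importance, and 3 genes furthest each way from the chromosome 1 median. Alternatives were other scalings, no filter, DESeq2 1.42.0, the 4 doxycycline libraries alone, a replicate block, each doxycycline replicate left out, no chromosome 1 genes and effective-length offsets.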

Additional observations from a re-analysis of the deposited data

Results flagged for a closer look

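For 49 of the genes named singly, that is the 16 fixed by name and those ranked by size of change or place on chromosome 1, the test of the difference itself (edgeR, KO against WT with doxycycline minus KO against WT untreated, adjusted p under 0.05 over all genes) passed, so the KO effect was not the same size in the 2 conditions. Each value is that difference of log2 changes, with 2 libraries in each of the 4 groups. Over all genes tested, 19.2% passed the same test. The 49 cannot be read as an excess over that share, because of how the genes were picked. Genes ranked by their difference from untreated were picked on this same value. The other ranked genes were picked on their change with doxycycline, which is part of the difference.

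List members named in the results are not included here. Among these 49 the most negative differences were those of Klk7 -4.45, Myl3 -4.24, Stra6l -4.21, Pou2f3 -4.13, Pth1r -4.02, Chrna3 -3.48, Wnt6 -2.56, Chil1 -2.23. Further negative differences were H19 -2.07, Ascl2 -2.06, Pou5f1 -1.80, Tfap2c -1.76, Cdx2 -1.75, Igf2 -1.54, Peg10 -1.23, Elf3 -1.23. Smaller negative differences were Lncenc1 -1.14, Rhox9 -0.99, Hand1 -0.85, Slc2a3 -0.66, Fabp3 -0.61, Nanog -0.53, Ptma -0.28.

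Among the same 49 the most positive differences were those of Kirrel2 4.52, Nog 3.59, Npas4 2.95, Vgf 2.84, Klhdc8a 2.73, Rapgef3 2.67, Stmn2 2.10, Dchs1 2.00, Cdh6 1.94. Further positive differences were Crmp1 1.90, Bok 1.85, Sema3c 1.68, Dock3 1.45, Kif1a 1.23, Trh 1.10, Col1a1 0.92, Axl 0.88, Phf6 0.85. Smaller positive differences were Vim 0.82, Mest 0.81, Nes 0.68, Eno1 0.66, Tuba1a 0.59, Sox2 0.48, Tuba1b 0.39, Tubb5 0.33. Kirrel2 is at or under 3 counts in all 4 doxycycline libraries, and its untreated change was only 0.19. Its difference thus rests on 3 and 3 counts in KO against 0 and 0 in WT with doxycycline, and on the prior count of the fit. Groups near 3 counts also enter the differences of Myl3, Stra6l, Pou2f3, Chrna3, Nog and Npas4.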

How the results depend on the processing

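None of the counts of genes, list counts or named genes reversed under the alternatives run. Counts of genes within 1.5 times the main value were 78 of 81. The other 3 were the genes whose KO effect differed from untreated, 3425 mainly, 2232 with DESeq2 and 1988 with effective-length offsets, and those differing from retinoic acid, 3952 mainly and 2310.0 with those offsets; the cause was not tested. With 1 doxycycline library left out, the genes called numbered 5422 to 5942 (6614 with all), those higher 2534 to 2934, those lower 2888 to 3082, those outside chromosome 1 4847 to 5370, the differences from untreated 2904 to 3552 and from retinoic acid 3374 to 3788. Of 833 named-gene values 7 lost their call (Gapdh and Kirrel2), and 49 of 840 list counts moved. Replicate numbers did not pair the samples (correlation of deviations -0.27 between KO and WT with doxycycline). With a replicate block 6471 genes were called, 3120 higher and 3351 lower, 5871 outside chromosome 1, with 3316 and 3819 differences. The crossed pairing, chosen after seeing the data like the fit without retinoic acid libraries, called 7226. Differences from untreated cannot be had from the 4 doxycycline libraries alone. With 2 libraries per group, changes under 1.5-fold were recovered in part.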
